A study of Mus musculus with 6 samples.

Results

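Naive CD4 T cells of mice lacking NLRP3 were compared with those of wild-type mice. NLRP3 is a cytosolic sensor that assembles an inflammasome, the complex that activates caspase 1. The comparison used 2 of the 6 samples of the series, 1 library of naive WT cells and 1 library of naive NLRP3KO cells, chosen by their titles. The other samples were Th2 cultures of both genotypes at day 3 and day 6, made from ribosomal RNA-depleted RNA. Those cells were stimulated through CD3 and CD28 while interferon gamma was blocked by an antibody, and IL-4 was added to 10 ng/ml. The naive WT group was CD4 T cells from spleen and nodes of C57/Bl6j mice aged 7 weeks, with no treatment. The naive NLRP3KO group was the same cells from mice labelled NLRP3 KO, of the same strain and age. Both naive libraries were made from purified mRNA and sequenced on a MiSeq instrument. The labels do not give the number of animals per library, the construction of the knockout allele or the purity of the isolated cells. Each genotype was thus a single library, so the differences below are between libraries, have no replicate check and carry no p-value.

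Naive CD4 T cells are mature helper T cells that have left the thymus and have not yet met their antigen. They express the T cell receptor with its CD3 subunits and the coreceptor CD4, and they recirculate through spleen and lymph nodes in a quiescent state. Preparations from these organs can also hold B cells, which carry the antigen receptor subunits CD79a and CD79b and present antigen on MHC class II, and smaller numbers of cytotoxic, myeloid and red cells. MHC class I, by contrast, is carried by nearly all nucleated cells, with beta-2-microglobulin as its light chain and with the TAP transporter delivering the peptides it presents.

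The deposited values were FPKM, fragment numbers normalised to transcript length and to mapped fragments, each with a lower and an upper confidence bound. Genes above 0 numbered 12875 in WT and 12570 in NLRP3KO, of 23415 entries with status OK. The bounds correspond to an estimated 1250992 fragments on genes in WT and 1104508 in NLRP3KO, with a median of 68.3 and 58.6 fragments per gene at an FPKM of 1 or more. The defining transcripts of CD4 T cells were present in both. Cd4 had an FPKM of 109 in WT and 177 in NLRP3KO, Cd3e 230 and 462, and Lck, the kinase bound to CD4, 190 and 286. The targeted gene Nlrp3 lies on chromosome 11 (mm9 59356188 to 59380458). Its FPKM was 0.0569 in WT, an estimated 1.15 fragments, and was listed at 0 in NLRP3KO. Since 3 fragments on this gene would give an FPKM of about 0.149 in WT and 0.218 in NLRP3KO, the loss of Nlrp3 was not detectable at this depth. Xist, transcribed from the inactive X chromosome of females, was at 27.1 and 37.8, and the other 9 sex-linked genes examined were listed at 0 in both libraries.

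The difference between the libraries depended on transcript length and, less strongly, on GC content. After the libraries were scaled to the same median ratio, the median log2 difference (NLRP3KO minus WT) was -0.72 for 119 genes with transcripts under 500 bases and -0.42 for 457 genes of 750 to 1000 bases. It was 0.08 for 2243 genes of 2000 to 3000 bases and -0.05 for 691 genes of at least 6000 bases. Leaving out ribosomal protein genes gave -0.65 for the 109 remaining genes under 500 bases. Each difference below was therefore adjusted by the running median of genes of like length. After this adjustment, genes of 40 to 44% GC still had a median of -0.13 and those of at least 56% GC a median of 0.17, and for several genes a value with a further GC adjustment is given. The origin of both trends was not tested.

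**Figure D1:**
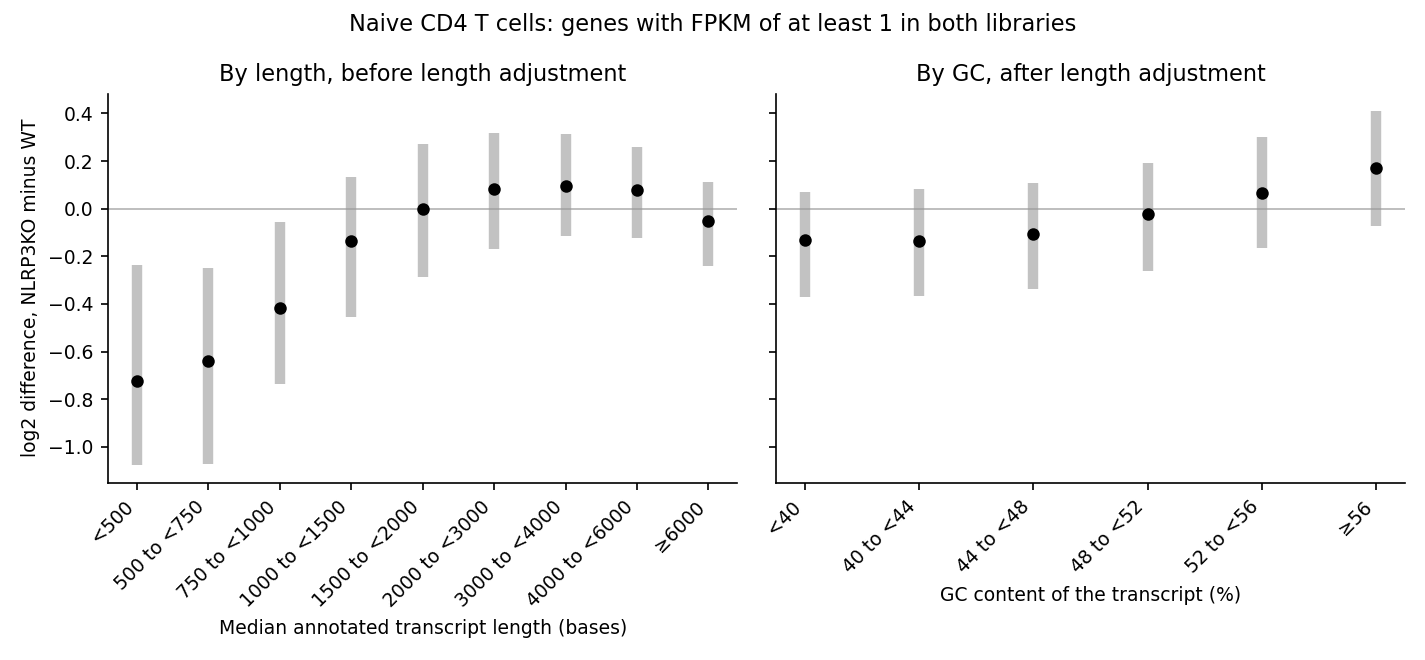
Log2 difference between the naive libraries (vertical axis, NLRP3KO minus WT) by median transcript length in bases before length adjustment (left) and by GC content in percent after it (right). Points are medians over genes whose FPKM was 1 or more in both libraries and bars span the middle quartiles. The median runs from -0.72 for the shortest transcripts to about 0.1 between 2000 and 6000 bases, and from -0.13 to 0.17 across GC content.

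Most genes were close in the 2 libraries. Of 8845 entries whose FPKM was 1 or more in either library and whose transcripts had at least 1000 bases, 7666 (86.7%) differed by less than 1.5-fold after adjustment. At least 2-fold higher in NLRP3KO were 90 (1.02%), and at least 2-fold lower were 174 (1.97%). With the further condition that the authors' bounds did not overlap after scaling and length adjustment (bounds apart), 65 (0.735%) were higher and 154 (1.74%) lower. These counts rest on the scaling: on FPKM as deposited, where NLRP3KO values ran 0.42 higher on the log2 scale at the median, 421 were at least 2-fold higher and 70 at least 2-fold lower. The 65 higher genes had shorter and more GC-rich transcripts (median 1761 bases, 53.5% GC) than all genes kept (2764 bases, 50.2%), and the 154 lower genes had shorter and less GC-rich ones (2066 bases, 46.1%). With the GC adjustment the counts with bounds apart were 68 and 125. No ribosomal protein gene was among the 65, and 7 were among the 154.

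**Figure D2:**
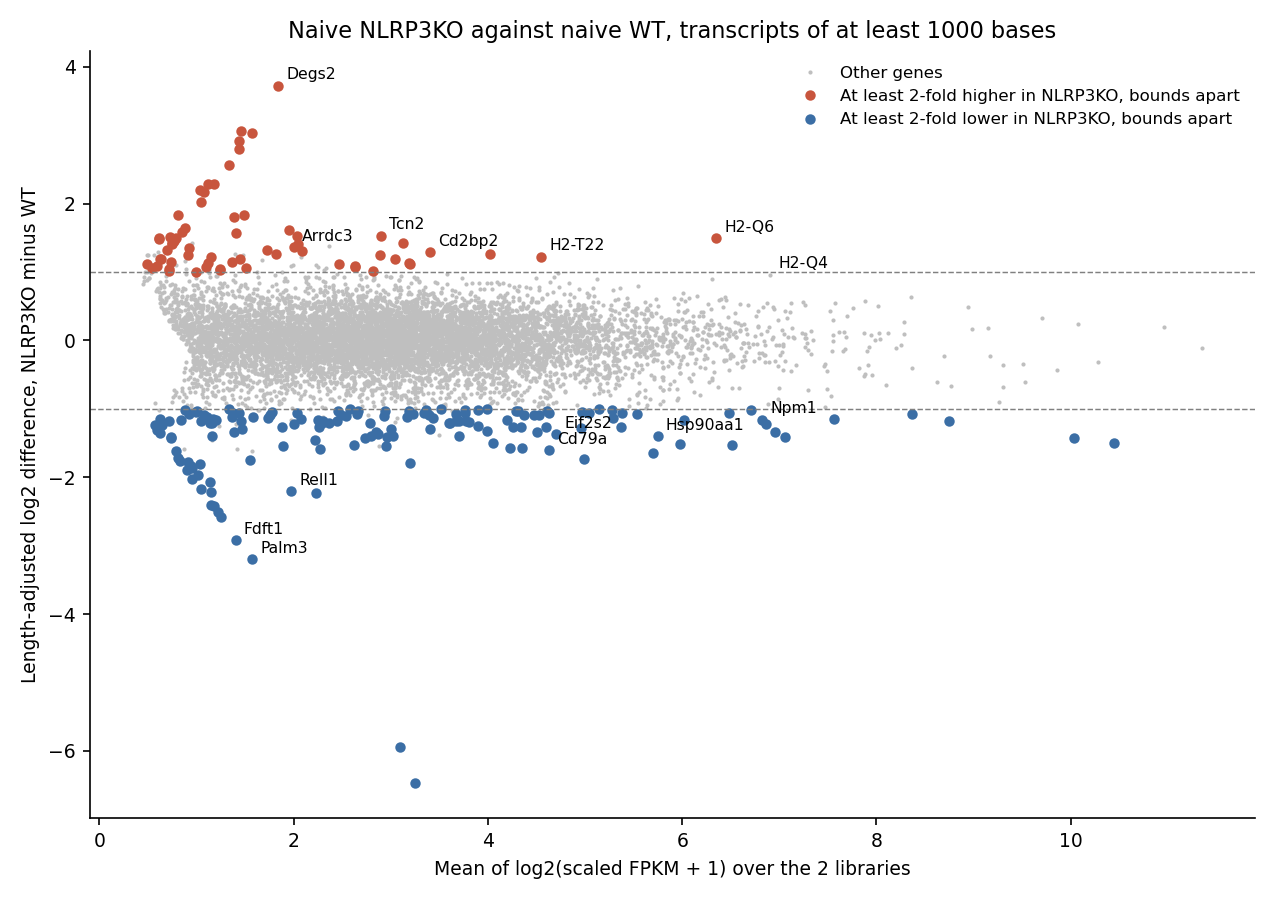
Length-adjusted log2 difference (vertical axis, NLRP3KO minus WT) against the mean of log2(scaled FPKM + 1) over the 2 naive libraries (horizontal axis), 1 point per entry with transcripts of at least 1000 bases. Coloured points are the 65 entries at least 2-fold higher and the 154 at least 2-fold lower with bounds apart, and dashed lines mark 2-fold. The slanting rows of points at the left and the 2 lowest points are genes listed at 0 in 1 library.

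B cell genes were the list furthest from 0. All 19 B cell markers reached an FPKM of 1 in either library, and 14 of them were at least 1.5-fold lower in NLRP3KO with bounds apart, against 5.21% of all 9872 genes of any length. None was higher, against 2.89% of all genes, and 10 were at least 2-fold lower with bounds apart. The median log2 difference over the list was -1.06 (all genes 0.01), and -1.11 with the GC adjustment. The summed FPKM of the 19 markers was 401 in WT and 207 in NLRP3KO, a scaled ratio of 2.6 in favour of WT. As in any bulk sample, fewer B cells and less of these transcripts per cell cannot be told apart.

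Cd79a, at mm9 chromosome 7 from 25682530 to 25687216, encodes a signalling subunit of the B cell antigen receptor. Its FPKM was 37.1 (bounds 28.5 to 41.5) in WT and 14.99 (10.2 to 19.6) in NLRP3KO. Its adjusted log2 difference was -1.60 ± 0.25, where the error is 1 SD of counting error from the bounds. Its partner Cd79b was at 21.6 and 10.1, and Ms4a1, which encodes the surface protein CD20, at 8.61 and 3.94. Cd22, an inhibitory receptor of B cells, was at 4.30 and 1.97. WT was thus the higher library for each of these surface receptor genes, with bounds apart. The transcription factor genes of the list were less uniform. Spib was at 2.93 and 1.60 with bounds apart, while Pax5, which maintains B cell identity, was at 2.97 and 4.06, and Ebf1, which specifies the lineage, at 1.06 and 1.09, both with overlapping bounds. Further genes lower in NLRP3KO, outside the list but among the 15 lowest with transcripts of at least 1000 bases, were Bank1, a scaffold in B cell receptor signalling (5.56 and 2.20), and Ly86, the partner of the surface receptor RP105 (8.79 and 2.75).

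The CD4 T cell markers did not share this pattern. Of 10 markers 1 was higher by the same criterion and none was lower, with a median of 0.14 (0.05 with the GC adjustment). Cd28, the costimulatory receptor, was at 19.4 in WT and 34.8 in NLRP3KO (adjusted log2 difference 0.32), and Cd3d at 245 and 225 (-0.50). Cd3e, at 0.63, was the marker past 1.5-fold, but its deposited FPKM lay above its own upper bound in both libraries, as did that of Cd3d.

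**Figure D3:**
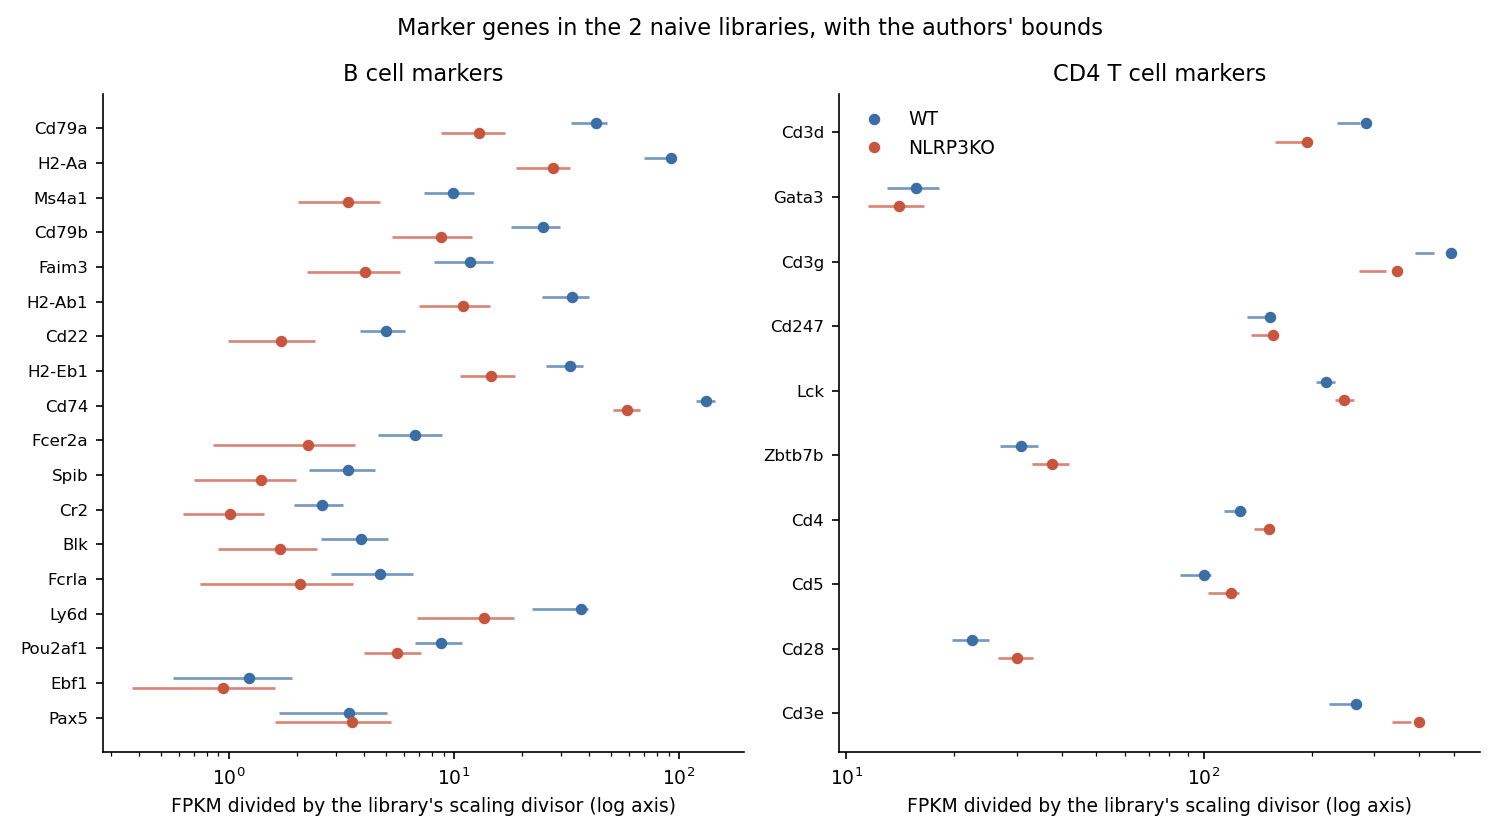
FPKM divided by each library's scaling divisor (horizontal, log axis) for 18 of the B cell markers (left) and 10 CD4 T cell markers (right), before length adjustment. Points are the naive WT (blue) and naive NLRP3KO (red) libraries and lines the authors' bounds, beyond which some abundant genes lie. The WT point is to the right for all B cell markers drawn but Pax5, while the T cell markers fall on either side.

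Markers of other cell types were fewer or less uniform. Of 11 NK and cytotoxic markers 6 were kept, with a median of -0.61, and 5 of the 6 were below 0. By the 1.5-fold criterion with bounds apart 1 was lower (16.7%, beside 5.21% of all genes) and none was higher. The summed FPKM of the 11 was 65.2 in WT and 41.4 in NLRP3KO, a scaled ratio of 0.47 (NLRP3KO over WT). Gzma, a granule protease of cytotoxic cells, was lower with bounds apart, at 8.41 (4.73 to 11.7) in WT and 1.38 (0 to 2.56) in NLRP3KO. Prf1, which encodes perforin, was at 5.71 and 8.92 with overlapping bounds. The CD8 T cell markers had summed FPKM of 16.1 and 15.7, a scaled ratio of 0.73 (NLRP3KO over WT), with differences of 0.28 for Cd8a and -0.48 for Cd8b1. Of 21 myeloid markers 14 were kept, with a median of 0.54, but 0.19 without the length adjustment and 0.05 among members with an FPKM of at least 5. Elane and Mpo, which encode neutrophil granule enzymes, were higher in NLRP3KO with bounds apart, at 1.18 and 5.21 and at 1.85 and 5.84. Of the 14 kept, 4 were below 0, the lowest being Tyrobp, a signalling adaptor of myeloid and NK cells, at -1.47. The summed FPKM of the 21 was 239 and 252, a scaled ratio of 0.785 (NLRP3KO over WT), and 4 were listed at 0 in NLRP3KO and none in WT. Defining macrophage and monocyte genes were near 0, with Csf1r at 0.41 and 0.26 and Cd14 at 0.17 and 0. Of 9 dendritic cell markers 1 and of 12 stromal and endothelial markers 1 reached an FPKM of 1, of 7 plasma cell markers 6 were kept with a median of 0.25, and 3 of 6 platelet markers were kept with a median of 0.13. The part of any of these cells in the gene differences between the libraries was not tested.

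The major histocompatibility region on chromosome 17 (from H2-K1 to the last H2-T gene, 34132957 to 36327096 on mm9) held genes on both sides. Of 88 genes kept there, 7 were at least 1.5-fold higher in NLRP3KO with bounds apart and 5 were lower. These are 7.95% and 5.68% of the region's genes, beside 2.89% and 5.21% of all genes, so the lower share was near that of all genes. The 5 lower genes all encode class II chains or the class II peptide exchange factor: H2-Aa, H2-Ab1, H2-Eb1, H2-DMb1 and H2-DMb2. Not all class II genes were lower: H2-DMa, H2-Oa and H2-Ob had differences of 0.26, 0.63 and 0.14, without bounds apart. The 7 higher genes were the class I genes H2-Q1, H2-Q4, H2-Q6 and H2-T22, the peptide transporter genes Tap1 and Tap2, and Ager, which encodes a receptor for advanced glycation end products. Ager (34734807 to 34737877) had the highest adjusted difference among transcripts of at least 1000 bases that the naming rule ranked, 1.61 ± 0.37, at an FPKM of 1.10 (0.32 to 1.76) in WT and 6.48 (3.75 to 9.15) in NLRP3KO. The 5 lower class II genes had summed FPKM of 152 in WT and 66.7 in NLRP3KO. H2-Aa was at 79.9 and 31.8, H2-Ab1 at 28.9 and 12.7, and H2-DMb2 at 10.8 and 3.98. Cd74, the invariant chain that escorts class II molecules and is encoded elsewhere, was likewise lower, at 114 (103 to 125) and 68.4 (58.9 to 78.0). H2-Aa, H2-Ab1, H2-Eb1 and Cd74 are also members of the B cell list, so this is not a separate result from the one above.

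Among 18 genes of class I presentation 5 were higher with bounds apart (2.89% of all genes) and none was lower (5.21%), with a median of 0.21, or 0.14 with the GC adjustment. H2-Q4 (35516562 to 35521619), a class I gene, was at 73.8 (61.9 to 76.9) in WT and 191 (163 to 193) in NLRP3KO, an adjusted log2 difference of 0.96 ± 0.09. H2-T22 was at 12.4 (8.99 to 15.9) and 39.8 (32.6 to 47.2), a difference of 1.22 ± 0.23. Tap2 was at 28.6 and 72.5 (0.80) and Tap1 at 39.9 and 88.8 (0.62, or 0.45 with the GC adjustment). The bounds of these 4 genes did not overlap. The class I genes with the highest levels were closer: H2-K1 was at 871 and 1339 (0.24), H2-D1 at 449 and 718 (0.19), and B2m, the shared light chain, at 2827 and 2576 (-0.15). The immunoproteasome genes Psmb8, Psmb9 and Psmb10, which shape the peptides, had differences of -0.09, -0.19 and -0.03. H2-Q genes share reads with near-identical copies, so the split among them is uncertain. H2-Q7 was at 186 in WT and 221 in NLRP3KO (-0.12). H2-Q6 was at 41.8 and 155 (1.49), the latter above its own upper bound of 147. Pooled over 7 H2-Q entries, FPKM summed to 329 in WT and 640 in NLRP3KO, a scaled log2 ratio of 0.54 without length adjustment. For H2-T22 the uncertainty is larger, since pooled with its copy H2-T9 the sums were 70.6 and 106, a scaled log2 ratio of 0.17.

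Promoter sequences of the higher class I entries H2-Q4 and H2-T22 and of the lower class II gene H2-Aa are given as examples. They are the 250 bases before and the first 50 bases of the gene, from RefSeq on GRCm38.p6 (chr17:35379367-35379666 on the plus strand, chr17:36042693-36042992 on the minus strand and chr17:34287774-34288073 on the minus strand). Capitals mark TTTCACTT, the core of the interferon response element of class I promoters, and CCAAT, the box bound by NF-Y, each searched on both strands and not overlapping here.
H2-Q4: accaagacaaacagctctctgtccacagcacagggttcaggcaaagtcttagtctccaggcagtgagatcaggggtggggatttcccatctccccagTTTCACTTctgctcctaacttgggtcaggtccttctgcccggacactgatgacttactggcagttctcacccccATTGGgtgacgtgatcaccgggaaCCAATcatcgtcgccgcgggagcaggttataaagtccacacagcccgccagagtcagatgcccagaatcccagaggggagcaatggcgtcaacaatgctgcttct
H2-T22: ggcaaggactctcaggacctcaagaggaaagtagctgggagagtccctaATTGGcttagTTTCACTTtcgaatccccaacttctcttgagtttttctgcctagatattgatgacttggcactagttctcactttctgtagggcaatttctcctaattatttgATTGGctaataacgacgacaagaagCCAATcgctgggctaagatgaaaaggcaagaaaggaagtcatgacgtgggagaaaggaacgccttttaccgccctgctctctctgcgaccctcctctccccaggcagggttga
H2-Aa: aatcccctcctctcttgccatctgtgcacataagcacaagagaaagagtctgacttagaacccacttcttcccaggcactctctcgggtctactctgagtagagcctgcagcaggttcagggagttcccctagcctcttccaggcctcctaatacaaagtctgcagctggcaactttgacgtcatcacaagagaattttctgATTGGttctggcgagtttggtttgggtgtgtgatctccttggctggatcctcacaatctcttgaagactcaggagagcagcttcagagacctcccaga
H2-Q4 and H2-T22 each had 1 TTTCACTT, and H2-Aa had none in this window. Of 32851 RefSeq promoters of this length 1.60% held TTTCACTT and 37.4% held CCAAT, of which H2-Q4 had 2, H2-T22 had 3 and H2-Aa had 1. These matches describe the letters and are not evidence of binding, and the motif was chosen after the expression values were seen. No class I gene with close levels, such as H2-K1 or B2m, was included, so the sequences contrast class I with class II only.

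Interferon-stimulated genes, which encode antiviral effectors and their regulators, had a small positive median with members on both sides. All 35 members were kept, and 25 had a difference above 0, and the median was 0.25 (0.29 with the GC adjustment). The sum went the other way, with FPKM of 806 in WT and 967 in NLRP3KO, a scaled ratio of 0.895 (NLRP3KO over WT). At least 1.5-fold higher with bounds apart were 4 (11.4%, beside 2.89% of all genes), and 2 were lower (5.71%, near the 5.21% of all genes). Ifit3, an RNA-binding antiviral protein gene, was at 3.60 (2.30 to 4.82) in WT and 10.5 (7.56 to 13.4) in NLRP3KO. Irf7, the transcription factor that amplifies type I interferon, was at 17.5 and 40.3 (0.68, or 0.53 with the GC adjustment), Oas1a at 3.83 and 10.2, and Dhx58, a regulator of RNA sensing, at 3.33 and 8.93. WT was the lower library for each of these 4, with bounds apart. Ifit1, of the same family as Ifit3, was lower in NLRP3KO at 19.7 (16.3 to 22.6) and 15.4 (12.2 to 18.5), a difference of -0.84, as was Rsad2, at 2.30 and 1.25. Isg15 was at 9.43 and 17.3 with overlapping bounds.

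**Figure D4:**
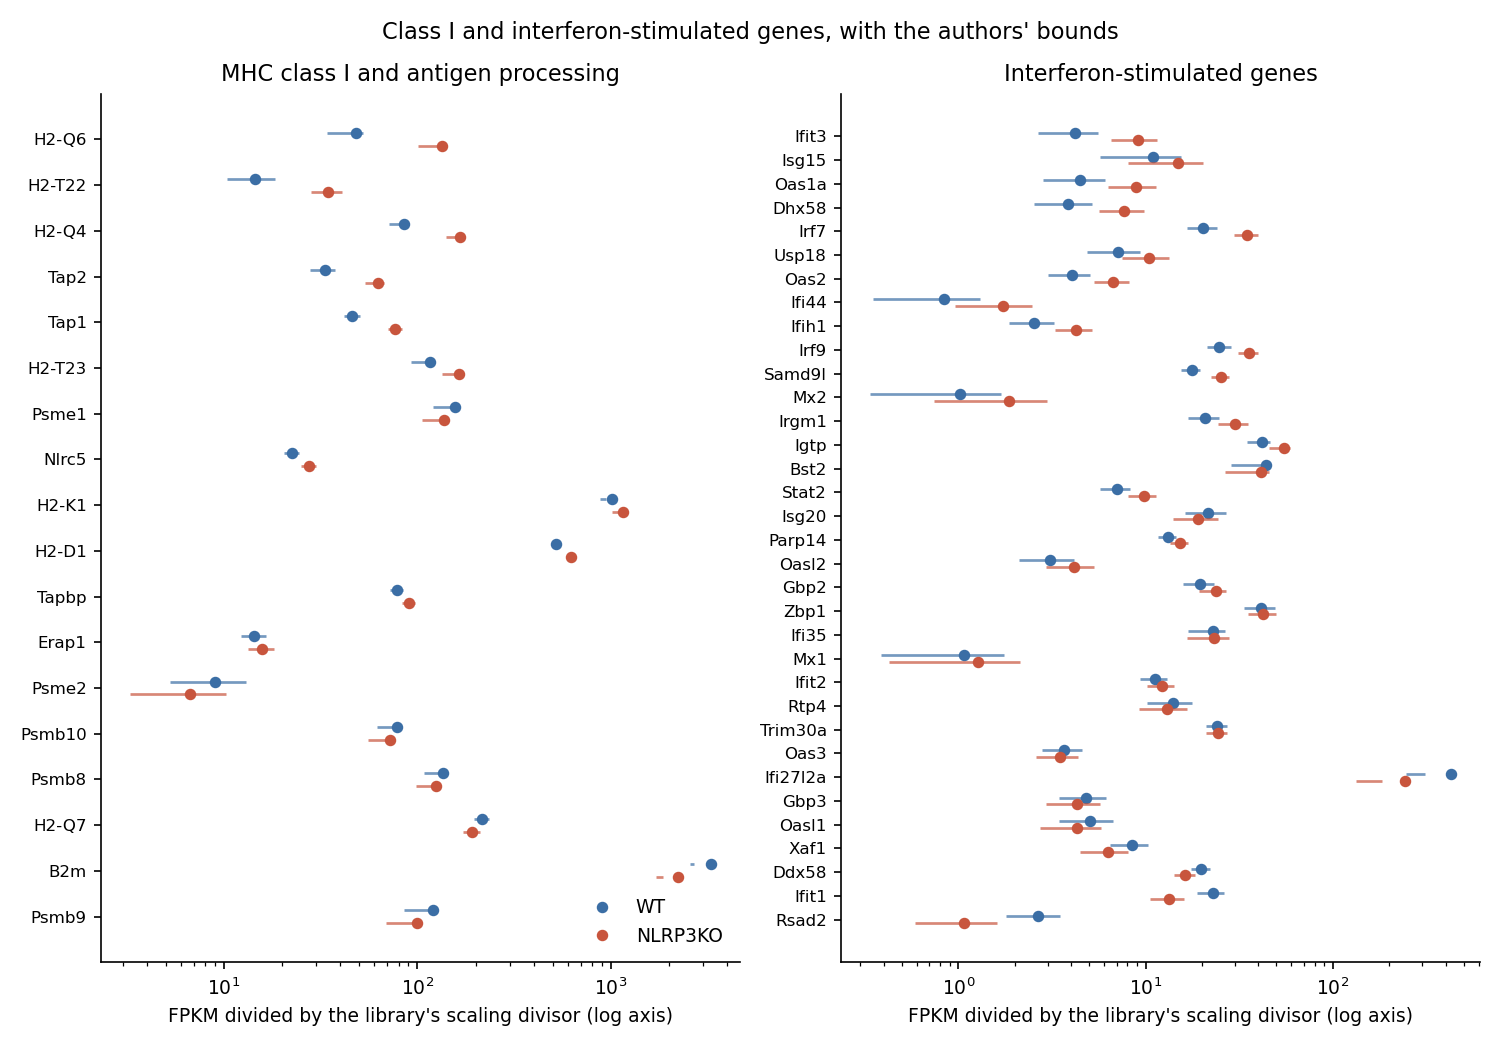
FPKM divided by each library's scaling divisor (horizontal, log axis) for 18 genes of class I presentation (left) and 34 of the interferon-stimulated genes (right), before length adjustment, in order of the adjusted difference. Points are naive WT (blue) and naive NLRP3KO (red), and lines are the authors' bounds. H2-Q6, H2-T22, H2-Q4, Tap2 and Tap1 stand apart at the top left, and Ifit1 and Rsad2 stand apart in the other direction at the bottom right.

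The 15 genes highest in NLRP3KO under the naming rule, all with transcripts of at least 1000 bases, had no list in common, though H2-T22 and H2-Q1 are both class I genes. Besides Ager, H2-T22 and H2-Q1 they were Tmem41a, Tcn2, Haghl, Arrdc3, Fuz, Cd2bp2, Ccdc69, Eps8l1, Mus81, Carkd, Aldh2 and Tmem181b-ps, and most had low levels. Tcn2, which encodes the cobalamin carrier transcobalamin, was at 2.83 (1.65 to 4.12) in WT and 13.9 (10.6 to 17.1) in NLRP3KO, a difference of 1.53 ± 0.29. Arrdc3, an arrestin family gene, was at 1.23 (0.75 to 1.71) and 6.49 (5.03 to 7.94), and kept its size under the GC adjustment (1.36 and 1.51). Cd2bp2, which encodes a protein that binds the tail of CD2 and the splicing machinery, was at 4.79 (3.60 to 5.93) and 18.6 (15.5 to 21.7), and Ccdc69 at 8.62 and 26.5. Aldh2, a mitochondrial aldehyde dehydrogenase, was at 2.26 and 8.56, and Mus81, a DNA junction endonuclease, at 3.73 and 13.6. Tmem181b-ps is a pseudogene and its value is uncertain because it can share reads with its parent gene. Among genes with an FPKM of at least 100 the highest included H2-Q4, Snrnp70, Sept9, Acap1 and Psap. With the GC adjustment Sept9 (0.65), Acap1 (0.61) and Psap (0.59) fell below 1.5-fold, to 0.50, 0.46 and 0.51. Snrnp70, a protein of the U1 splicing particle, was at 49.7 and 122 (0.89), or 0.70 with the GC adjustment.

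Among transcripts of at least 1000 bases the 15 lowest genes under the naming rule were Tmem126b, Rell1, Zbtb8os, Tomm7, Cd79a, Zfp467, Pfdn2, Atp5g1, H2-DMb2, Ly86, Commd1, Bank1, Cnga1, Rnaseh2b and Ms4a1. Tmem126b, an assembly factor of respiratory complex I, was at 7.65 (4.06 to 10.1) in WT and 1.41 (0 to 2.61) in NLRP3KO, a difference of -2.23 ± 0.42. Rell1, a relative of the TNF receptor family member RELT, was at 6.14 (4.79 to 7.43) and 1.05 (0.50 to 1.69), -2.20 ± 0.24. Tomm7, a small subunit of the mitochondrial import pore, was at 52.98 (39.6 to 57.6) and 17.6 (11.6 to 22.6). Pfdn2, a subunit of the prefoldin chaperone, was at 29.9 and 12.4, and Atp5g1, subunit c of ATP synthase, at 26.0 and 11.9. Among abundant genes, Npm1, a nucleolar chaperone, was at 155 (143 to 167) and 80.8 (71.2 to 90.5), a difference of -1.16 ± 0.10 on an estimated 697 and 280 fragments. Smc4, Dad1 and Mbnl1 were other abundant lower genes, with differences of -0.86, -0.71 and -0.70, the last -0.57 with the GC adjustment.

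Several housekeeping groups had medians below 0. Of all genes 2.89% were higher and 5.21% lower by the 1.5-fold criterion with bounds apart. Cytosolic ribosomal protein genes had a median of -1.03 before length adjustment and -0.54 after it. Of 83, 33 were lower (39.8%) and 4 higher (4.82%), among them Rps27, listed at 0 in WT and at 55.1 in NLRP3KO. For those under 1000 bases, 65 genes, the median was -1.03 before adjustment and -0.50 after it. For 911 other genes under 1000 bases, above 0 in both libraries, it was -0.47 and 0.01. The last value lies near 0 by construction, since the adjustment was fitted without ribosomal protein genes. Values in this family are uncertain because of processed pseudogenes. Respiratory chain genes went from -0.63 before adjustment to -0.21 after it, with 10 of 83 lower (12.0%) and 1 higher (1.20%). Ndufs6 of complex I was at 37.1 and 7.88. Of 34 translation factors 9 were lower (26.5%) and none higher, with a median of -0.14. Eif2s2, a subunit of the initiator tRNA carrier eIF2, was at 34.3 (29.2 to 38.1) and 18.0 (14.3 to 21.6), and Eif3m, a subunit of eIF3, at 26.0 and 13.9. The elongation factor gene Eef2 was at 348 and 694 (0.49), above 0. Of 17 chaperones 4 were lower (23.5%) and none was higher. The lowest was the cytosolic Hsp90 gene Hsp90aa1 at 72.2 (64.0 to 78.5) and 38.3 (32.6 to 42.2), -1.40 ± 0.11. Its constitutive counterpart Hsp90ab1 was at 213 and 265 (-0.16). Proteasome genes had 6 of 37 lower (16.2%, beside 5.21% of all genes) and a median of -0.20. Mitochondrial ribosomal protein genes had a median of -0.21 and 4 of 76 lower (5.26%), the share among all genes. Zinc finger Zfp genes and solute carriers had medians of 0.02 and 0.10.

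**Figure D5:**
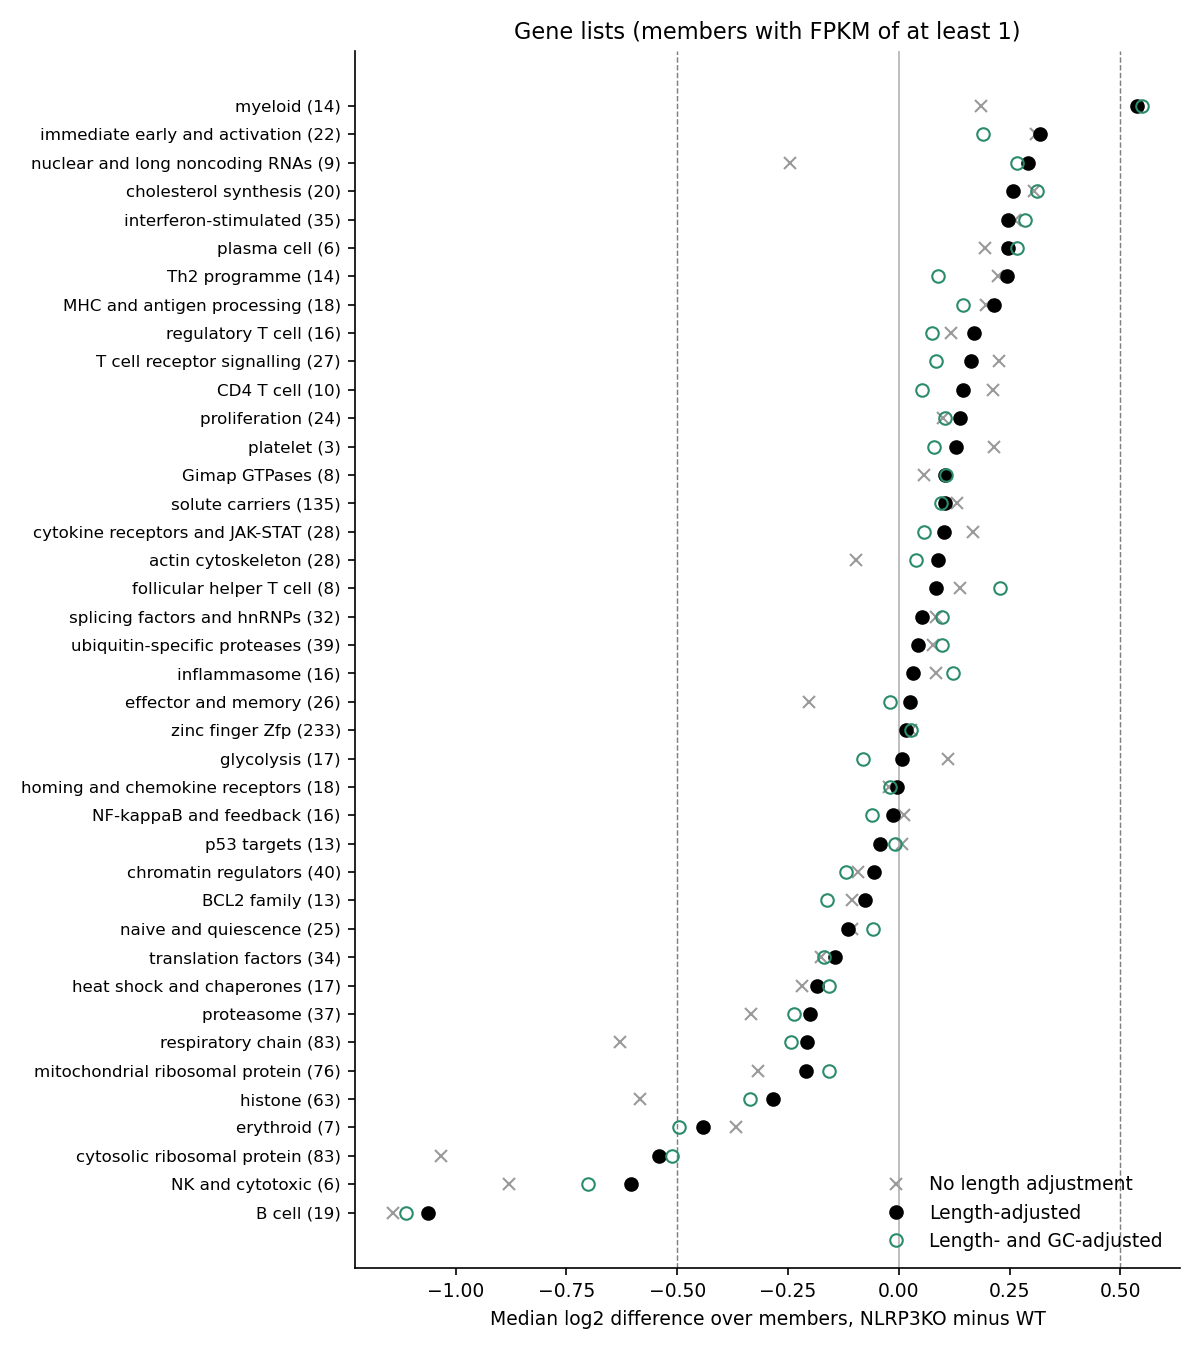
Median log2 difference (NLRP3KO minus WT, horizontal axis) of each gene list with at least 3 members kept, with the number of members kept in brackets. Crosses are without length adjustment, filled points with it and open points with length and GC adjustment, and dashed lines mark 0.5 in either direction. B cell markers lie furthest left at about -1.1 under all 3, while the ribosomal protein and respiratory chain lists move towards 0 with the adjustment.

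Lists of T cell state were read against the same shares of all genes, 2.89% higher and 5.21% lower. Of 25 naive and quiescence genes 3 were lower and none higher, with a median of -0.11. Foxp1, a transcription factor that maintains quiescence, was at 62.8 (59.3 to 66.5) in WT and 45.8 (42.4 to 49.2) in NLRP3KO, -0.94, and Pik3ip1, an inhibitor of PI3 kinase, at 39.6 and 31.5. Dapl1 was at 293 and 82.4, but both values lay above their own upper bounds (235 and 78.4). Of 22 immediate early genes 4 were higher (18.2%) and 1 lower (4.55%), and 16 had a difference above 0, with a median of 0.32, or 0.19 with the GC adjustment. Fosb was at 4.38 (3.36 to 5.39) and 12.6 (10.4 to 14.8), Ier5 at 9.90 and 26.5 and Ppp1r15a at 21.1 and 48.4 (0.67, or 0.51 with the GC adjustment), while Klf6 was at 27.3 and 19.0 and Fos and Egr1 had differences of 0.28 and 0.48.

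Foxp3, the lineage factor of regulatory T cells, was at 9.30 (7.74 to 10.9) in WT and 25.03 (21.9 to 28.2) in NLRP3KO, a difference of 0.84 ± 0.14 on an estimated 138 and 248 fragments. It was the member of the 16 kept regulatory T cell genes that stood apart, and the list median was 0.17 (0.07 with the GC adjustment). Cd40lg, the ligand by which helper T cells signal to B cells, was at 16.1 (11.4 to 20.3) and 39.95 (29.6 to 47.5), 0.99 ± 0.25. Of 28 cytokine receptor and JAK-STAT genes 3 were higher (10.7%), the feedback inhibitors Cish (2.76 and 8.11) and Socs3 (13.1 and 32.2) and the kinase gene Jak3 (14.0 and 31.3, 0.60 or 0.40 with the GC adjustment). Il6ra, the IL-6 receptor gene, was the 1 lower member (3.57%), at 55.4 and 41.9. In the NF-kappaB list Tnfaip3, a feedback inhibitor, was higher at 5.97 and 14.4 and the subunit gene Rel lower at 7.09 and 5.08 (-0.72, or -0.57 with the GC adjustment), each 1 of 16 kept (6.25%). None of the 14 kept Th2 programme genes was apart in either direction, with a median of 0.24, and the T cell receptor signalling list had 1 of 27 higher (Cd3e, 3.70%, near the share of all genes) and a median of 0.16.

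The other inflammasome genes were at low to moderate levels. Of 26 listed 16 were kept, with a median of 0.03, 1 higher (6.25%, beside 2.89% of all genes) and 2 lower (12.5%, beside 5.21%). Pycard, which encodes the adaptor ASC, was at 28.8 (23.8 to 32.8) in WT and 21.7 (17.2 to 25.9) in NLRP3KO, -0.90, and Brcc3, which deubiquitinates NLRP3, at 13.9 and 9.70, -0.89. Nlrp1b, the 1 higher member, was at 0.11 (0 to 0.39) and 1.14 (0.57 to 1.79), an estimated 0.64 and 14.9 fragments. It reached an FPKM of 1 in NLRP3KO only. Casp1, the effector protease, was at 4.42 and 6.03 (0.07), Nek7, the kinase that binds NLRP3, at 8.37 and 11.9 (0.00), Aim2, the DNA sensor, at 7.23 and 9.41 (-0.07) and Casp8 at 24.9 and 43.3 (0.32). Txnip, a thioredoxin-binding protein, was at 115 and 172 (0.06), and Il1b at 0.95 and 1.12. After scaling the bounds overlapped for Casp1, Nek7, Aim2 and Txnip.

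Some genes were listed at 0 in 1 library, which in such tables can be a failed estimate, so no fold is given. Of 8845 genes kept, 42 were listed at 0 in WT and 31 in NLRP3KO, and they made up 33 of the 90 higher and 30 of the 174 lower genes. Listed at 0 in WT were Degs2 (13.6 in NLRP3KO), Ahsa2 (9.05), Sco2 (7.55), Hnrnpa1 (7.38) and Msto1 (7.36). Hnrnpa1 encodes an RNA-binding protein that most cells make in large amounts. Listed at 0 in NLRP3KO were Palm3 (6.78 in WT), Fdft1 (5.18), Gmppb (3.82), Yipf2 (3.54) and Rab2b (3.39). Without all genes listed at 0, 38 genes were at least 2-fold higher and 126 lower with bounds apart.

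The shallow Th2 libraries could follow few of these genes. Of the 65 higher genes 8 were above 0 in both libraries at day 3, and 7 of the 8 were higher in NLRP3KO, beside 56.4% of all 4091 genes kept. At day 6 it was 3 of 4, beside 61.5% of 1969. The median log2 difference at day 3 was 0.037 over the 8 and 0.0012 over all 4091, so counts of signs there say little about size. Of the 154 lower genes 39 were above 0 in both libraries at day 3, with a median of 0.0014. Lower in NLRP3KO were 16 of the 39 (41.0%, beside 43.6% of all genes there). At day 6 it was 12 of 23 (52.2%, beside 38.4%). Npm1 had FPKM of 43.5 (27.3 to 59.6) in WT and 12.7 (1.70 to 23.9) in NLRP3KO at day 3. At day 6 it was at 47.2 (30.3 to 64.2) and 12.5 (0 to 49.2), with overlapping bounds. Cd79a, Ms4a1, Tcn2, Ager and Foxp3 were listed at 0 in all 4 Th2 libraries. H2-Q4 was at 7.03 and 6.38 at day 3, with overlapping bounds. At day 6 it was at 9.68 (3.97 to 14.9) and 28.1 (8.60 to 47.3), again with overlapping bounds. These libraries differ from the naive ones in RNA selection and depth, so the values stand side by side only.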

How the data were processed

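RNA was sequenced once per genotype and stage, and the 2 naive libraries were compared. The authors deposited 1 table per library with FPKM and its bounds per gene, per the file headers; the submitters' processing notes name TopHat, Cufflinks and mm9, without versions, and which annotation was used is not given in those sources. Of 23700 entries, 285 without status OK were left out. FPKM are not counts and no count test was run. Libraries were scaled by the median ratio over 9102 genes at an FPKM of 1 or more in both, and the difference of log2(scaled FPKM + 1), which understates low genes, was adjusted by a running median of 501 genes along transcript length. Lengths and GC came from GENCODE M21 (GRCm38), matched by symbol, for 9872 of 9985 entries; coordinates are those of the deposited mm9 tables, counted from 1. A gene was called at 2-fold (1.5-fold in lists), with bounds apart where stated. Fragments were estimated from the bounds, and all errors cover counting only; the libraries were PCR-amplified without molecular identifiers. For 272 genes in WT and 183 in NLRP3KO the FPKM fell outside the bounds given with it.

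Genes named were Nlrp3 and the inflammasome list, the 15 highest and 15 lowest that reached an FPKM of 5 in 1 library, were above 0 in both, lay inside their bounds and had bounds apart, the 6 highest and 6 lowest that reached an FPKM of 100, the 5 with the highest FPKM in the other library among those listed at 0 in each, and up to 4 per list past 1.5-fold with bounds apart. Except for the inflammasome and other lists, transcripts had at least 1000 bases. Ribosomal protein, histone, small RNA, receptor segment and unnamed genes were left out of the ranking. Some genes that this rule takes are not reported here. Other genes in the text, such as members named to show a list's spread and the genes followed at day 3 and day 6, were chosen after their values were seen. The 45 gene lists and the comparison were chosen with earlier results of these data known. Alternatives changed the adjustment, scaling, pseudocount, filter and length minimum. Code was tested on simulated data. Python 3.11.15 was used with pandas 2.3.3 and NumPy 2.4.6.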

Additional observations from a re-analysis of the deposited data

How the results depend on the processing

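The counts of genes 2-fold or more above WT and below WT, then of those with bounds apart, were 90, 174, 65 and 154. On FPKM as deposited without length adjustment they were 421, 70, 389 and 50. They were 276, 306, 117 and 206 with a pseudocount of 0.1, and 7, 43, 7 and 43 with a pseudocount of 5. A minimum FPKM of 5 gave 33, 106, 26 and 99, and transcripts of at least 2000 bases gave 27, 88, 26 and 83, both on fewer genes tested. Transcripts of any length gave 153 higher. Taking genes above 0 in both libraries, an alternative chosen after seeing the data, gave 57 higher and 38 higher with bounds apart. The other settings kept all 4 counts within 1.5 times. The myeloid median of 0.54 was 0.19 without length adjustment, 0.051 at a minimum FPKM of 5 and 0.499 with the midpoint of the bounds, which was also chosen after seeing the data. The B cell, NK and ribosomal protein medians stayed beyond 0.5 under the 5 settings run on lists. Of 160 named values 1 that was past 1.5-fold changed sign without length adjustment (Zfp706, -0.015), and 13 fell below 1.5-fold with the GC adjustment. Some inflammasome values close to 0 also changed sign without length adjustment, such as Nek7 (-0.003 to 0.078). The causes of these changes were not tested. No paired analysis was possible because each group is 1 library. Depth limits genes with a low FPKM: 3 fragments decide whether Nlrp3 is seen, and genotype cannot be told apart from any other difference between these 2 libraries.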

Other observations

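Globin transcripts, which mark red cells and their precursors, were lower in the NLRP3KO library as a family. Summed over 4 alpha globin entries the FPKM was 976 in WT and 474 in NLRP3KO, and over 2 beta globin entries 239 and 117, scaled log2 ratios of -1.47 and -1.46 without length adjustment. Single entries cannot be read, since their copies are near identical: Hba-a2 was at 507 and 39.8 while Hba-a1 was at 84.3 and 238. Slc4a1, the red cell anion exchanger gene, was at 6.25 and 4.93 (adjusted log2 difference -0.73). Car2 was at 28.6 and 36.3 before scaling, where NLRP3KO values ran 0.42 higher on the log2 scale at the median.

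Cholesterol and lipid synthesis genes had a median of 0.26. Of 20, 3 were higher (15%, beside 2.89% of all genes) and 2 lower (10%, beside 5.21%). Mvd, an enzyme of the mevalonate pathway, was at 2.76 in WT and 7.93 in NLRP3KO. Sc4mol was at 11.4 and 7.43, and Fdft1, squalene synthase, at 5.18 in WT and listed at 0 in NLRP3KO.

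Within 1 Mb of Nlrp3 on chromosome 11, 31 genes were kept, with a median adjusted difference of 0.07. At least 1.5-fold higher with bounds apart were 2 (6.45%, beside 2.89% of all genes), and 1 was lower (3.23%, beside 5.21%). Of the 2 higher, Pemt was listed at 0 in WT and at 2.46 in NLRP3KO. The other, Srebf1, was at 8.06 (6.69 to 9.44) in WT and 21.7 (19.0 to 24.4) in NLRP3KO. Its adjusted difference was 0.84, or 0.66 with the GC adjustment.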
